A study of Mus musculus with 2 samples.

Results

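CC chemokine ligands were followed across the cell types of denervated mouse muscle in 2 single-cell RNA libraries, 1 from muscles injected with a control antibody and 1 from muscles injected with an antibody that neutralizes SPP1 (osteopontin, a secreted phosphoprotein that binds integrins and CD44). The members were taken by symbol: *Ccl2*, *Ccl3*, *Ccl4*, *Ccl6*, *Ccl7*, *Ccl8*, *Ccl9*, *Ccl12*, *Ccl22* and *Ccl24*, which are 10 of the 32287 features in the tables. Every member was found in both libraries, and each had at least 100 unique molecular identifiers (UMIs, each a captured RNA molecule) over the 2 libraries.

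In both groups the peroneal nerve was crushed on both sides in male mice of 10 to 16 weeks, and the muscle was taken 7 days post injury (7 dpi). The IgG group received 2 µg of goat anti-mouse IgG in 10 µL into the tibialis anterior at injury and then every 2 days, and the SPP1-nAb group received the same amount of SPP1 neutralizing antibody on that schedule. The labels give the strain as C57BL/6J, whereas the methods name *S100GFP*-tg mice for the antibody experiment, whose enhanced GFP is driven by the S100B promoter to mark Schwann cells. The labels name GFP-positive cells in the titles but describe live cells sorted with and without GFP, and they name both the tibialis anterior and a second hind limb muscle where the study's text names the tibialis anterior only. How many mice were pooled per library was not given in the sources used here. With 1 library per group there was no replicate check, so no p-value is given, and each interval below is an exact 95% interval for counting error only.

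Chemokines are small secreted proteins that steer leukocytes through G protein-coupled receptors, and those of the CC family carry adjacent cysteines near their amino terminus. In injured muscle and nerve they are best known for bringing CCR2-bearing monocytes out of the blood. *Ccl2*, *Ccl7*, *Ccl12* and *Ccl8* form the monocyte chemoattractant (MCP) group, of which the first 3 act on CCR2, while mouse CCL8 is known as a ligand of CCR8. *Ccl3* and *Ccl4* encode macrophage inflammatory proteins, and the product of *Ccl3* acts on CCR1. *Ccl6* and *Ccl9* are rodent genes whose products act on CCR1, *Ccl24* encodes eotaxin-2, a CCR3 ligand that attracts eosinophils, and *Ccl22* encodes a CCR4 ligand that attracts regulatory T cells.

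Of the 10 genes, 8 lie on chromosome 11 in 2 blocks (GENCODE M39, GRCm39). The MCP block runs from *Ccl2* (chr11:81926397-81928279, plus strand) through *Ccl7* (chr11:81936532-81938351) and *Ccl12* (chr11:81992645-81994466) to *Ccl8* (chr11:82006007-82007625), with 8.25 kb between *Ccl2* and *Ccl7* and 11.5 kb between *Ccl12* and *Ccl8*. The other block starts 1456 kb further on with *Ccl9* (chr11:83463745-83473161, minus strand) and *Ccl6* (chr11:83478708-83483913, minus strand), 5.55 kb apart, and ends with *Ccl3* (chr11:83538670-83540191, minus strand) and *Ccl4* (chr11:83553383-83555509, plus strand), 13.2 kb apart. The gap between *Ccl7* and *Ccl12* is 54.3 kb, and that between *Ccl6* and *Ccl3* is 54.8 kb. *Ccl22* (chr8:95471226-95478327) and *Ccl24* (chr5:135598668-135601905) lie elsewhere.

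The reference table held promoters of 6 members (RefSeq, GRCm38.p6, another build than that of the gene positions above). The 250 bases before the start are printed 5′ to 3′ for the neighbours *Ccl12* (chr11:82101595-82101844, plus strand) and *Ccl8* (chr11:82114935-82115184, plus strand), whose levels ran together across cell types, and for the neighbours *Ccl6* (chr11:83593088-83593337, minus strand) and *Ccl9* (chr11:83578637-83578886, minus strand), which ran together in another pattern. Although their levels ran together, *Ccl12* and *Ccl8* were highest in different kinds of phagocyte. Capitals mark matches to the motifs TATAAA (the TATA box) and TGANTCA (an AP-1 site), searched on both strands.
Ccl12: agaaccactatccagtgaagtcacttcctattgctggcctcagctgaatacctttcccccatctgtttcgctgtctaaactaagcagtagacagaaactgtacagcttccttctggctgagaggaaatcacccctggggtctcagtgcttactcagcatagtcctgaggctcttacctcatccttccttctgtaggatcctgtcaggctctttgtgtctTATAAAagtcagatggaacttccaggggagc
Ccl8: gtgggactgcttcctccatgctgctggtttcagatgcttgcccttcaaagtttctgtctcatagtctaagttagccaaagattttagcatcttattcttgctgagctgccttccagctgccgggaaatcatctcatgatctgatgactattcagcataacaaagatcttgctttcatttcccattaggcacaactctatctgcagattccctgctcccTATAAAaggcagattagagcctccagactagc
Ccl6: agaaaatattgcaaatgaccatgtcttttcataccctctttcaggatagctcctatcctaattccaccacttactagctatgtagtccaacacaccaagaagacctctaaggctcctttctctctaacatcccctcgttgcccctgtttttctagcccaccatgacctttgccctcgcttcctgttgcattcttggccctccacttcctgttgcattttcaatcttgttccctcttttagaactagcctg
Ccl9: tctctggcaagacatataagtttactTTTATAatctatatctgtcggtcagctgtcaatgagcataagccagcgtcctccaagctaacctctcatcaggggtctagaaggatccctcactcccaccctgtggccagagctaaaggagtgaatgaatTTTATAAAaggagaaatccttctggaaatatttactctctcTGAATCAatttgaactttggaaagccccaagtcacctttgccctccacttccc
*Ccl12* and *Ccl8* each held TATAAA near the start, at 31 to 26 and 32 to 27 bases before it, and a TATAAA beginning 35 to 25 bases before the start was present in 2.12% of the 32851 promoter windows of the table. *Ccl9* held it at 94 to 89, at 92 to 87 (overlapping, on the other strand) and at 224 to 219 bases before the start, and TGAATCA at 53 to 47. TATAAA was found in 3 of the 6 members' windows and in 12.4% of all windows, and TGANTCA in 1 of 6 and in 6.75%. The interferon response element and CCAAT were in none of the 6, against 2.98% and 33.9% of all windows.

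The IgG library held 23779 barcodes and 97607674 UMIs and the SPP1-nAb library 25069 barcodes and 127719916 UMIs. After filters 21047 and 22283 cells were kept, with a median of 3623 and 4555 UMIs. Cells were placed in classes by marker genes that included no CC ligand. Mononuclear phagocytes were split further into states by a list of marker genes for each state, of which at least 3 had to be detected. Of the kept IgG cells 51.2% (50.5 to 51.8) were phagocytes, and of the kept SPP1-nAb cells 62.8% (62.2 to 63.4) were. Levels are a gene's UMIs scaled to the total UMIs of the same cells (CPM), each UMI standing for a molecule whatever the length of the gene. Ratios are log2 of SPP1-nAb over IgG, and where values stand in pairs the IgG library comes first. Because a cell in a deeper library passes a marker gate more readily, the sizes of states depend on the gate, and the state results were repeated with cells gated at equal depth and with clusters. *Spp1* RNA, which the antibody does not target, was 871 CPM in IgG phagocytes against 1200 CPM in SPP1-nAb phagocytes (0.46). *Gfp* was not confined to Schwann-like cells, with 243 and 297 CPM in phagocytes.

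Nearly all CC ligand RNA was in mononuclear phagocytes. The 10 members together were 7950 CPM (7931 to 7970) of the IgG library and 9140 CPM (9121 to 9158) of the SPP1-nAb library, and phagocytes held 92.2% and 93.9% of those UMIs. These shares depended on how cells were gated and were 72.5% and 71.2% when cells were gated after thinning to 2000 UMIs. Within phagocytes the sum was close in the 2 libraries, at 12918 and 12294 CPM (−0.07, −0.08 to −0.07). The parts of that sum did not move together. The MCP group was 6826 CPM in IgG phagocytes against 5445 CPM in SPP1-nAb phagocytes (−0.33), and *Ccl3* with *Ccl4* was 2492 and 1871 CPM (−0.41). *Ccl6* with *Ccl9* was 3279 and 4176 CPM (0.35), and *Ccl24* was 321 and 800 CPM (1.32).

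*Ccl24* was the one member 2-fold apart over all phagocytes. It was at least 2-fold higher with SPP1-nAb in phagocytes, 1 of 10 members beside 0.696% of the 12214 genes with at least 100 UMIs there, and 0 of 10 were at least 2-fold lower beside 2.09% of those genes. Over all kept cells the count was again 1 of 10 higher beside 0.648% of 15123 genes, and 0 of 10 lower beside 5.82%. The members' median log2 ratio was −0.18 in phagocytes and 0.10 over all kept cells, and that of all genes tested was −0.04 and −0.10. A ratio of about −0.10 over all kept cells is therefore that of the median gene, and a ratio near 0 lies above it.

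**Figure D1:**
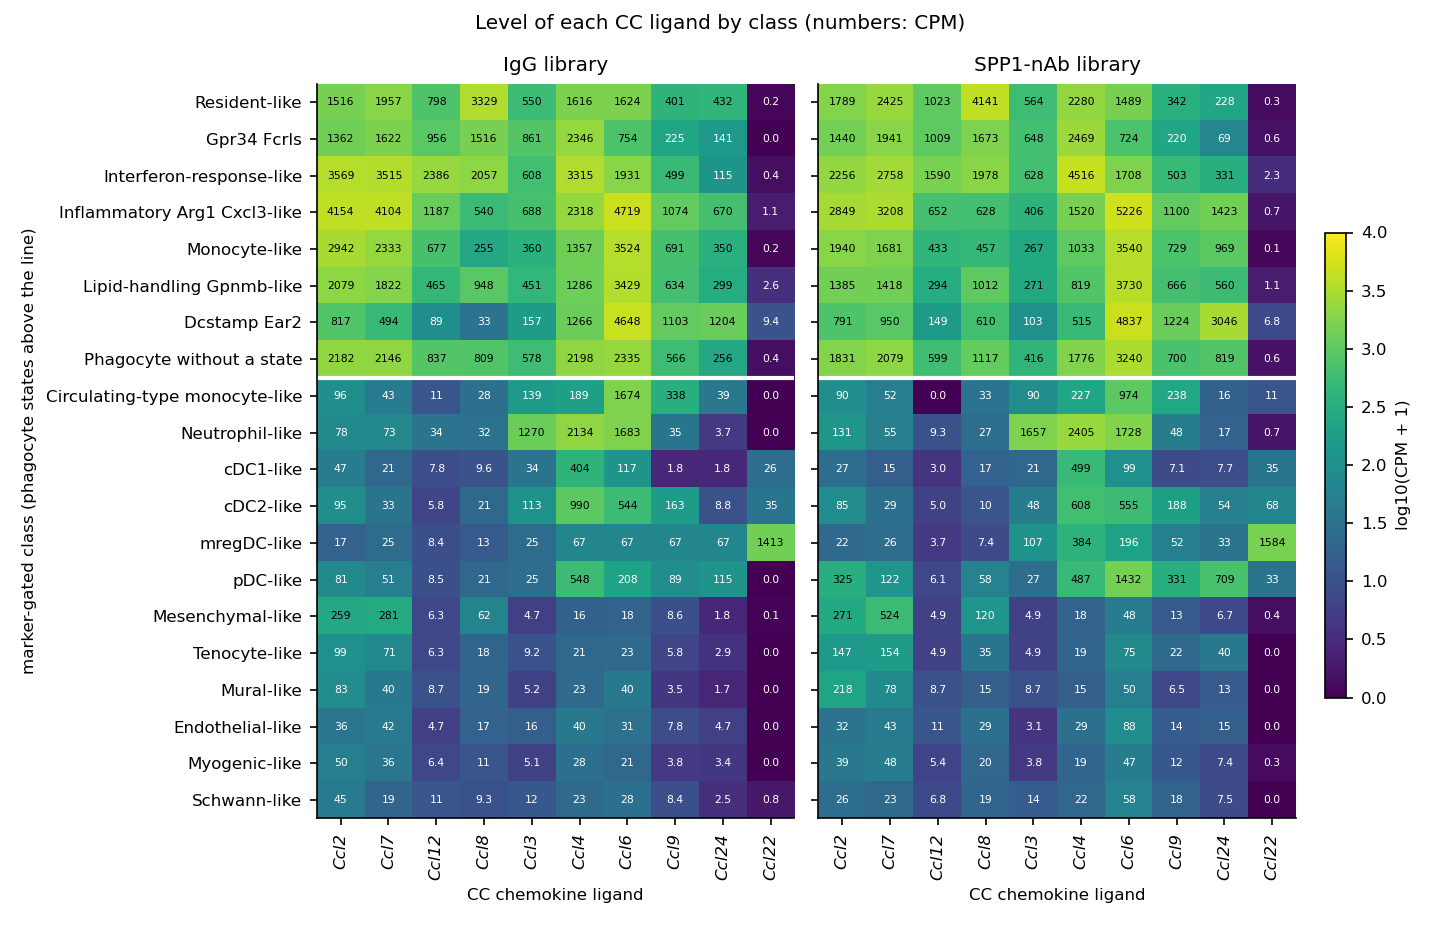
Level of each CC ligand (columns) in each marker-gated class (rows) in CPM, with the IgG library on the left and the SPP1-nAb library on the right; color is log10(CPM + 1). Phagocyte states above the white line hold high levels of 9 members, neutrophil-like cells hold *Ccl3*, *Ccl4* and *Ccl6*, and mregDC-like cells hold *Ccl22* (1413 and 1584 CPM).

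*Ccl2*, the principal CCR2 ligand, was highest in Arg1 Cxcl3 inflammatory-like phagocytes in both libraries. Its level there was 4154 CPM (4089 to 4220) with IgG against 2849 CPM (2815 to 2883) with SPP1-nAb. Interferon-response-like phagocytes followed with 3569 and 2256 CPM, then monocyte-like phagocytes with 2942 and 1940 CPM. In these 3 states and in Gpnmb lipid-handling-like phagocytes (2079 and 1385 CPM) *Ccl2* was lower with SPP1-nAb, by log2 ratios of −0.66 to −0.54, and over all phagocytes it was 2378 CPM (2364 to 2392) and 1790 CPM (1780 to 1799), a ratio of −0.41. The remaining named states were the resident-like phagocytes, marked by *Lyve1* and *Folr2*, with 1516 and 1789 CPM (0.24, 0.19 to 0.29), Gpr34 Fcrls phagocytes with 1362 and 1440 CPM (0.08), and Dcstamp Ear2 phagocytes with 817 and 791 CPM (−0.05, −0.19 to 0.10). Phagocytes without a state had 2182 and 1831 CPM (−0.25).

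*Ccl7*, the neighbour of *Ccl2* and also a CCR2 ligand, had the same 2 leading states. It was 4104 and 3208 CPM in inflammatory-like phagocytes (−0.36) and 3515 and 2758 CPM in interferon-response-like phagocytes (−0.35). Resident-like phagocytes had 1957 and 2425 CPM (0.31), so that *Ccl7*, like *Ccl2*, was higher with SPP1-nAb there while lower in the leading states. Over all phagocytes *Ccl7* was 2300 and 1958 CPM (−0.23). In Dcstamp Ear2 phagocytes it was 494 and 950 CPM (0.94), a ratio that had the opposite sign, down to −0.71, under 1 of 11 alternative settings.

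*Ccl12*, a rodent CCR2 ligand, had its highest level in interferon-response-like phagocytes, at 2386 CPM (2342 to 2430) with IgG against 1590 CPM (1554 to 1626) with SPP1-nAb. Among the members it had the lowest ratio over all phagocytes, 913 and 564 CPM (−0.70, −0.72 to −0.68). Inflammatory-like phagocytes showed the most negative value of the states, 1187 CPM (1152 to 1222) and 652 CPM (635 to 668), a ratio of −0.87. Resident-like phagocytes again went the other way, with 798 and 1023 CPM (0.36, 0.29 to 0.42). *Ccl12* was also the member most restricted to phagocytes, which held 96.7% and 98.0% of its UMIs.

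*Ccl8* departed from the rest of its group. Its leading state was the resident-like phagocytes, at 3329 CPM (3282 to 3378) with IgG against 4141 CPM (4070 to 4212) with SPP1-nAb, followed in both libraries by interferon-response-like phagocytes (2057 and 1978 CPM) and Gpr34 Fcrls phagocytes (1516 and 1673 CPM). Monocyte-like phagocytes, which are among the leading states of *Ccl2*, had 255 and 457 CPM. Resident-like cells were 1455 in the IgG library and 690 in the SPP1-nAb library, and their share of all *Ccl8* UMIs was 31.1% and 14.9%. Gated at equal depth the resident-like cells were 1003 and 474, and with clusters in place of the gate they were 3209 and 2713. Over all phagocytes *Ccl8* was 1236 and 1134 CPM (−0.12), although 6 of the 7 named states and the phagocytes without a state had ratios above 0, from 0.09 to 4.21. The sign of some depended on the settings. The Gpr34 Fcrls ratio ranged from −0.23 to 0.25 over 11 alternative settings and the lipid-handling-like ratio from −0.02 to 0.45. The interferon-response-like ratio, −0.06, ranged from −0.24 to 0.08. The 4.21 (3.59 to 4.91) came from Dcstamp Ear2 phagocytes, 21 UMIs in 92 IgG cells and 1433 UMIs in 345 SPP1-nAb cells. With clusters in place of the gate that state held 414 and 465 cells and the ratio was 0.97.

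*Ccl8* RNA was also concentrated in few cells. The 1% of kept cells with the most *Ccl8* held 39.2% of its UMIs in the IgG library and 34.4% in the SPP1-nAb library, against 14.7% and 10.6% for *Ccl9*, the least concentrated member. *Ccl24* (45.6% and 32.4%) and *Ccl12* (29.9% and 27.6%) were concentrated too, and *Ccl22* was found in fewer than 1% of cells. A single IgG cell held 369 *Ccl8* UMIs and a single SPP1-nAb cell 556. Of resident-like cells thinned to 2000 UMIs, 59.9% (57.2 to 62.5) had a *Ccl8* UMI in IgG and 76.4% (73.0 to 79.5) in SPP1-nAb.

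*Ccl3* reached its highest level outside the mononuclear phagocytes, and *Ccl4* was also high there. Neutrophil-like cells had 1270 CPM (1176 to 1369) of *Ccl3* with IgG against 1657 CPM (1593 to 1724) with SPP1-nAb, above every phagocyte state, of which Gpr34 Fcrls phagocytes led with 861 and 648 CPM, in SPP1-nAb within counting error of interferon-response-like phagocytes (628 CPM). The neutrophil-like class was 422 and 1016 cells with a shallow median of 1238 and 1382 UMIs, and it held 2.4% and 7.8% of all *Ccl3* UMIs. *Ccl4* was 2134 and 2405 CPM in neutrophil-like cells, and cDC2-like dendritic cells held 990 CPM (955 to 1025) against 608 CPM (582 to 634). Only 7 IgG neutrophil-like cells reached 2000 UMIs, so no share of cells at equal depth is given for them.

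Within phagocytes both genes were lower with SPP1-nAb, but not in each state. *Ccl3* was 550 and 367 CPM over all phagocytes (−0.58) and *Ccl4* 1942 and 1505 CPM (−0.37). Inflammatory-like phagocytes had ratios of −0.76 for *Ccl3* and −0.61 for *Ccl4*, and lipid-handling-like phagocytes −0.73 and −0.65. *Ccl4* was instead higher in interferon-response-like phagocytes, its leading state, with 3315 CPM (3264 to 3368) and 4516 CPM (4455 to 4576), and in resident-like phagocytes, with 1616 and 2280 CPM (0.50). The interferon-response ratio of 0.45 ranged from −0.30 to 0.55 over 11 alternative settings, and the resident-like ratio from 0.47 to 0.59. In the 92 and 345 Dcstamp Ear2 phagocytes *Ccl4* was 1266 and 515 CPM (−1.30), and with at least 4 markers required in the gate the ratio was 0.0069.

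*Ccl6* and *Ccl9*, the CCR1 ligands, shared their leading states. *Ccl6* was highest in inflammatory-like phagocytes, at 4719 CPM (4649 to 4789) with IgG against 5226 CPM (5180 to 5272) with SPP1-nAb, followed closely by Dcstamp Ear2 phagocytes with 4648 (4483 to 4819) and 4837 CPM (4749 to 4927). Those 2 states overlapped in the IgG library within counting error. *Ccl9* was highest in Dcstamp Ear2 phagocytes with 1103 and 1224 CPM and next in inflammatory-like phagocytes with 1074 and 1100 CPM, again within counting error of each other in the IgG library. Both genes were lowest, among the states, in Gpr34 Fcrls phagocytes, with 754 and 724 CPM of *Ccl6* and 225 and 220 CPM of *Ccl9*.

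In all phagocytes *Ccl6* was 2690 and 3466 CPM (0.37) and *Ccl9* 589 and 709 CPM (0.27). Within the 7 named states the ratios were smaller, from −0.18 to 0.15 for *Ccl6* and from −0.23 to 0.15 for *Ccl9*. Phagocytes without a state had higher ratios, 0.47 for *Ccl6* (2335 and 3240 CPM) and 0.31 for *Ccl9* (566 and 700 CPM). The states with the most *Ccl6* were larger in the SPP1-nAb library, with 756 and 1742 inflammatory-like cells, 2023 and 4238 lipid-handling-like cells and 92 and 345 Dcstamp Ear2 cells. Gated at equal depth these states were 697 and 1642, 1118 and 2350, and 19 and 143 cells. With clusters they were 1029 and 1959, 1415 and 2759, and 414 and 465 cells, so the Dcstamp Ear2 state was then of similar size in both libraries. Circulating-type monocyte-like cells, of which there were 96 and 105, had 1674 and 974 CPM of *Ccl6*, and neutrophil-like cells had 1683 and 1728 CPM.

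**Figure D2:**
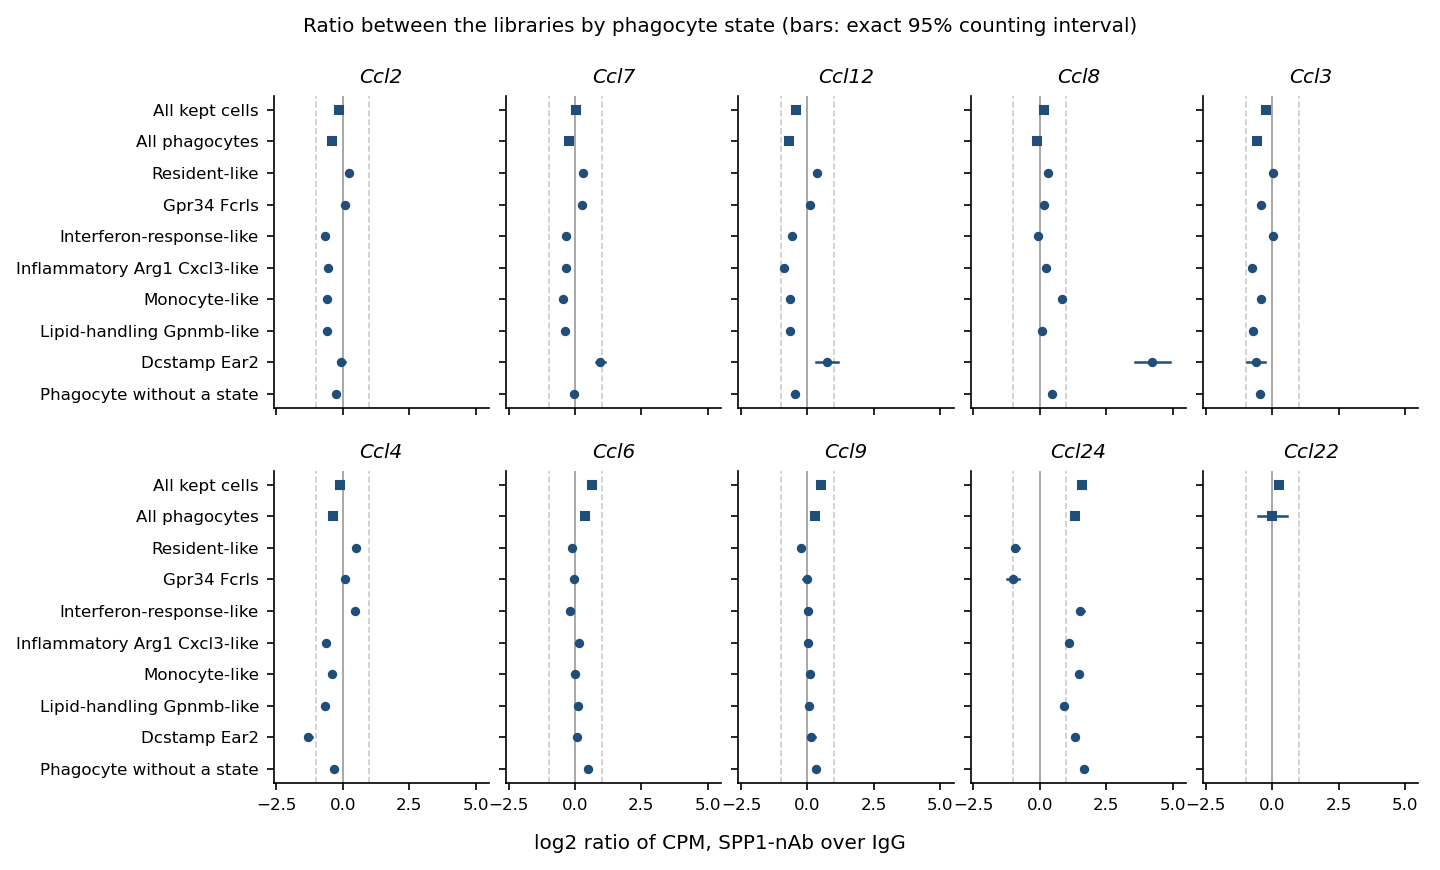
Log2 ratio of CPM, SPP1-nAb over IgG (horizontal axis), for each CC ligand in all kept cells, all phagocytes (squares) and each phagocyte state (circles), with exact 95% counting intervals as bars and dashed lines at 2-fold; groups with under 100 UMIs are not drawn. *Ccl24* lies right of 0 in all but resident-like and Gpr34 Fcrls phagocytes, and *Ccl2*, *Ccl7* and *Ccl12* lie right of 0 in resident-like phagocytes and left of 0 in inflammatory-like ones.

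*Ccl24*, the eosinophil attractant, showed the largest ratio of the members in phagocytes and split the states. Over all phagocytes it was 321 CPM (315 to 326) with IgG against 800 CPM (794 to 807) with SPP1-nAb, 2.50-fold higher. Dcstamp Ear2 phagocytes were its leading state in both libraries, with 1204 CPM (1120 to 1292) and 3046 CPM (2976 to 3117), and *Ccl24* was among the 10 genes by fold that set that state apart although the gate did not use it. Inflammatory-like phagocytes came second with 670 and 1423 CPM (1.09). Monocyte-like phagocytes had 350 and 969 CPM (1.47), lipid-handling-like phagocytes 299 and 560 CPM (0.90), interferon-response-like phagocytes 115 and 331 CPM (1.53), and phagocytes without a state 256 and 819 CPM (1.68).

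Resident-like and Gpr34 Fcrls phagocytes had less *Ccl24* with SPP1-nAb. The resident-like level was 432 CPM (415 to 450) with IgG against 228 CPM (212 to 246) with SPP1-nAb (−0.92, −1.04 to −0.80), which put this state in place 3 among the classes with IgG and in place 8 with SPP1-nAb. That ratio stayed between −1.13 and −0.74 over 11 alternative settings. Gpr34 Fcrls phagocytes had 141 and 69.5 CPM (−1.02), but with clusters in place of the marker gate their ratio was 0.11.

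Both the share of cells with *Ccl24* and the amount per cell were higher in the SPP1-nAb library. With each phagocyte thinned to 2000 UMIs (10202 and 13502 cells, with 564 and 493 shallower cells left out), a *Ccl24* UMI was present in 20.1% (19.3 to 20.9) of the IgG cells against 27.8% (27.0 to 28.6) of the SPP1-nAb cells, and such a cell held a mean of 3.03 and 5.60. In unthinned phagocytes, with a median of 4021 and 5064 UMIs, 27.1% and 37.9% had one. In myogenic-like cells, which are not known to make this ligand, the thinned share was 0.83% and 2.59% (median 2441 and 3859 UMIs before thinning). The shares were 42.4% and 26.6% in resident-like and 40.7% and 67.6% in Dcstamp Ear2 phagocytes, the same directions as their levels.

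The other members were compared in the same way. *Ccl6* was found in 78.6% and 82.6% and *Ccl9* in 50.0% and 55.8%, so both CCR1 ligands were in more cells with SPP1-nAb. *Ccl2* was in 65.6% and 60.2%, *Ccl12* in 36.5% and 30.3%, *Ccl3* in 41.1% and 32.1%, and *Ccl4* in 56.2% and 46.1%. Those 4 were in fewer cells, whereas *Ccl7* (55.1% and 53.3%) and *Ccl8* (26.9% and 26.5%) were nearly level. In myogenic-like cells the thinned shares were 8.52% and 5.83% for *Ccl2* and 4.99% and 7.78% for *Ccl6*.

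**Figure D3:**
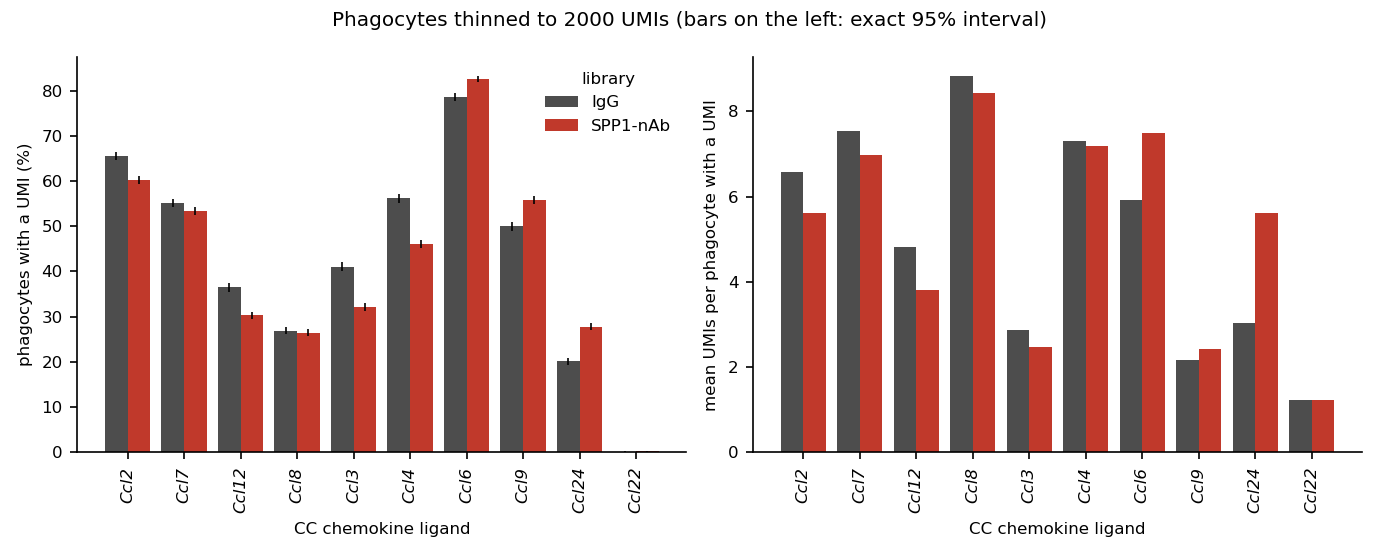
Share of phagocytes with at least 1 UMI of each CC ligand (left, percent, with exact 95% intervals) and the mean UMIs of those cells (right), after thinning each cell to 2000 UMIs, for the IgG (gray) and SPP1-nAb (red) libraries. *Ccl24* is higher with SPP1-nAb in both panels (20.1% and 27.8%, 3.03 and 5.60 UMIs), as are *Ccl6* and *Ccl9*. *Ccl2*, *Ccl7*, *Ccl12*, *Ccl8*, *Ccl3* and *Ccl4* are lower in both, although the shares of *Ccl7* and *Ccl8* are nearly level.

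*Ccl22* was held mainly by dendritic cells and little by phagocytes. The mregDC-like class, which holds mature dendritic cells with *Fscn1* and *Il12b*, had 1413 CPM (1266 to 1573) in 50 IgG cells and 1584 CPM (1437 to 1741) in 46 SPP1-nAb cells, a ratio of 0.16 whose counting interval (−0.05 to 0.37) included 0. These few cells held 49.0% and 40.4% of all *Ccl22* UMIs. Leukocytes to which the gate gave no lineage held another 19.3% and 20.2%. cDC2-like cells held 34.7 CPM (28.5 to 42.0) against 68.3 CPM (59.8 to 77.7), and phagocytes 1.02 CPM in both libraries on 47 and 76 UMIs. *Ccl22* was detected in 128 IgG and 192 SPP1-nAb cells in all, and 53.1% and 52.2% of thinned mregDC-like cells had a UMI.

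Some CC ligand RNA was found outside leukocytes. RNA released from broken cells adds a background to every droplet, and it was estimated in each non-phagocyte class from the complement C1q genes, which phagocytes express. In mesenchymal-like cells (2437 and 1004 cells) *Ccl7* was 281 CPM (272 to 291) with IgG against 524 CPM (508 to 541) with SPP1-nAb, a ratio of 0.90, and these levels were 16.0 and 20.7 times the estimated background. *Ccl2* was 259 and 271 CPM in the same cells (0.06, −0.02 to 0.14), at 14.1 and 11.7 times, and *Ccl8* was 62.1 and 120 CPM (0.95), at 6.71 and 8.29 times. The other 7 members were at 0.65 to 2.26 times the background in mesenchymal-like cells. The thinned share of mesenchymal-like cells with a *Ccl7* UMI was 19.3% and 32.9%, against 7.07% and 8.86% in myogenic-like cells. Myogenic-like levels were themselves 1.76 and 1.91 times the estimated background for *Ccl7* and 2.35 and 1.70 times for *Ccl2*. C1q RNA itself was 39.5 and 60.6 CPM in mesenchymal-like cells, and its part in the mesenchymal-like ratios was not tested. The clusters named mesenchymal differed in their split between the libraries, from 228 and 17 cells to 61 and 57 cells. Whether a different mix of mesenchymal-like cells had a part in these ratios was not tested.

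Tenocyte-like cells had 99.1 and 147 CPM of *Ccl2*, at 3.89 and 5.22 times the estimated background. Their *Ccl7* was 71.4 and 154 CPM, at 2.92 and 4.98 times. Mural-like cells had 83.1 CPM (61.3 to 110) of *Ccl2* with IgG against 218 CPM (178 to 265) with SPP1-nAb, on 48 and 101 UMIs. These levels were 1.67 and 6.80 times the estimated background, and the thinned shares of cells with a *Ccl2* UMI, 10.2% (5.52 to 16.7) and 12.1% (6.19 to 20.6), had overlapping intervals. The pDC-like class (59 and 68 cells) had 115 and 709 CPM of *Ccl24* and 208 and 1432 CPM of *Ccl6*. The pDC-like levels of *Ccl24* were 23.7 and 11.8 times, and those of *Ccl6* 5.12 and 5.46 times, the estimated background, on few cells in each library. A *Ccl24* UMI was in only 5.26% (1.10 to 14.6) and 13.4% (6.33 to 24.0) of thinned pDC-like cells, and such a cell held a mean of 4.33 and 8.33. For *Ccl6* the shares were 12.3% and 34.3%. C1q RNA was 76.5 and 350 CPM in the pDC-like class. Whether pDCs made these ligands was not tested.

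Members were often found in the same phagocyte. At 2000 UMIs per cell the median phagocyte held 4 of the 10 members in both libraries, 46.8% of IgG and 44.1% of SPP1-nAb phagocytes held 5 or more, and 1.48% and 2.00% held none. With *Ccl22* left aside as too rare in phagocytes, the 4 pairs with the highest ratio of shared cells to the product of the members' shares in both libraries were of members that follow each other on chromosome 11. *Ccl3* and *Ccl4* shared a cell 1.33 times as often in IgG and 1.51 times as often in SPP1-nAb as the product of their shares within each state gives. Phagocytes without a state (2774 and 3213 thinned cells) were treated as a state here, so the product does not account for a mix of cells among them. *Ccl2* with *Ccl7* was at 1.29 and 1.36, *Ccl7* with *Ccl12* at 1.31 and 1.37, and *Ccl12* with *Ccl8* at 1.29 and 1.36. Not all members that follow each other were above the product. *Ccl6* with *Ccl3* was at 0.98 in both libraries, and *Ccl8* with *Ccl9*, 1456 kb apart, at 0.95 and 0.99. In IgG 86.0% of phagocytes with *Ccl7* also had *Ccl2*, and in SPP1-nAb 83.7%.

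The ratio cannot exceed the inverse of the share of the more common member, so it can rank pairs with a widespread member low. *Ccl6* and *Ccl9*, also neighbours, were at 1.10 and 1.09, and 88.0% and 91.4% of phagocytes with *Ccl9* also had *Ccl6*. *Ccl24* shared cells with *Ccl9* (1.18 and 1.23) and with *Ccl7* (1.18 and 1.17). With *Ccl3* it was at 0.99 in IgG and 0.85 in SPP1-nAb. Cells of 1 library are not replicates and depth per cell was equal only in total UMIs, so these ratios are descriptions of the 2 libraries.

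**Figure D4:**
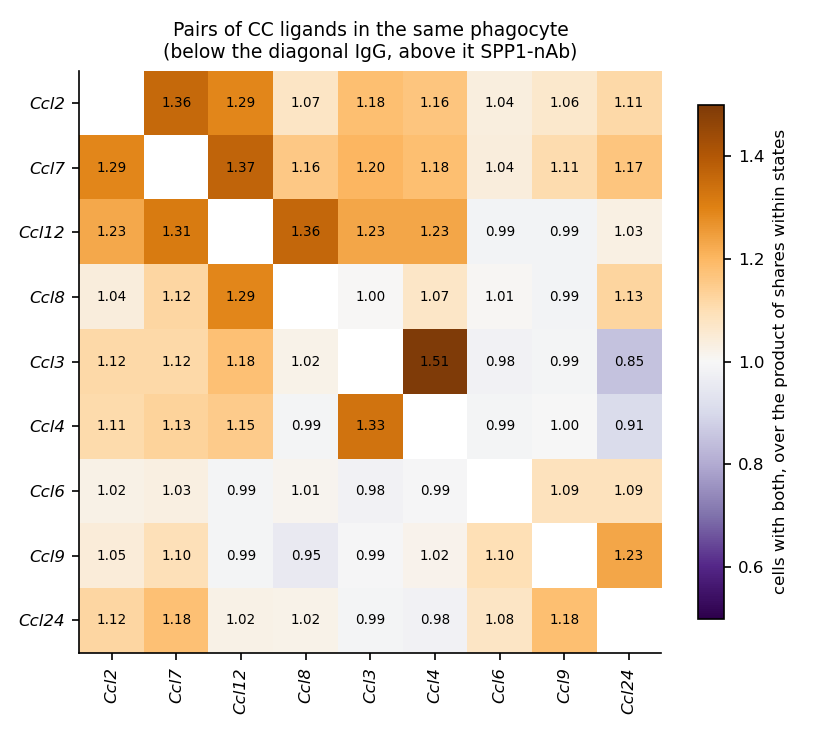
Number of thinned phagocytes with both ligands of a pair, divided by the number that the product of their shares within each state gives, with IgG below and SPP1-nAb above the diagonal. The pair *Ccl3* and *Ccl4* is highest in both libraries (1.33 and 1.51), next to *Ccl2*, *Ccl7* and *Ccl12* among themselves and *Ccl12* with *Ccl8*.

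Levels of several pairs also ran together across cell types. Over the 19 classes with at least 50 cells in each library, Pearson's r of log2(CPM + 1) was 0.98 for *Ccl2* with *Ccl7*, 0.95 for *Ccl8* with both *Ccl7* and *Ccl12*, 0.94 for *Ccl3* with *Ccl4*, *Ccl6* with *Ccl9* and *Ccl7* with *Ccl12*, and 0.93 for *Ccl2* with both *Ccl8* and *Ccl12* and for *Ccl9* with *Ccl24*. *Ccl22* stood apart, with r from −0.30 to 0.27 against the other members, but the mregDC-like class that holds it fell below that size with 46 SPP1-nAb cells, so its coefficients rest on the lower levels in other classes. With *Ccl22* left aside, the lowest r of any pair of members was 0.63 (*Ccl4* with *Ccl7*), so all these pairs ran together to some degree. The classes share 2 libraries and their background, and 8 of them are phagocytes, so the coefficients are descriptions. Among 9221 other genes, those most like *Ccl12* were *Pf4* (platelet factor 4, a CXC chemokine, r = 0.98) and the gate markers *Ms4a7* and *Cbr2*. *Pf4* also came first for *Ccl7* (0.94). *Folr2*, the folate receptor of resident macrophages and a gate marker, was most like *Ccl8* (0.97), *Osm* (oncostatin M) most like *Ccl6* (0.97), *Dok2* most like *Ccl9* (0.97), *Arrb2* most like both *Ccl3* (0.97) and *Ccl4* (0.97), *Impact* most like *Ccl2* (0.94), BC005537 most like *Ccl24* (0.93) and *Klrb1b* most like *Ccl22* (0.93).

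The difference of each member over whole libraries was split into a part from class shares and a part from levels within classes. A class share here is the class's part of all UMIs, not of cells, so it also depends on the UMIs per cell. Lipid-handling-like cells, for example, had a median of 5004 and 6101 UMIs. *Ccl6* differed by 914 CPM, of which 676 CPM came from class shares, with the lipid-handling-like (421 CPM) and inflammatory-like phagocytes (218 CPM) in front, and 238 CPM from levels. Of the part from levels, phagocytes without a state gave 133 CPM and lipid-handling-like phagocytes 57.2 CPM. Whether the mix of phagocytes without a state differed between the libraries was not tested. *Ccl9* had the same make-up, 126 of 162 CPM from class shares and 36.8 CPM from levels. With the equal-depth gate the parts were 510 and 394 CPM for *Ccl6* and 99.5 and 60.1 CPM for *Ccl9*. *Ccl24* differed by 391 CPM, and there levels gave the larger part, 273 CPM against 118 CPM from class shares. For *Ccl2* the parts were opposed, with 263 CPM from class shares and −408 CPM from levels, which left −145 CPM. *Ccl7* (208 and −165 CPM), *Ccl4* (84.0 and −165 CPM), *Ccl3* (40.6 and −90.4 CPM) and *Ccl12* (19.1 and −153 CPM) had the same opposed signs, and *Ccl8* the reverse, −56.2 CPM from class shares and 144 CPM from levels. The *Ccl8* part from class shares was −26.3 CPM with the equal-depth gate and −5.87 CPM with clusters, and the *Ccl12* part 30.1 and 28.5 CPM. *Ccl22* differed by 1.51 CPM in all. The class shares of the libraries also depend on which cells were sorted and loaded, and that part cannot be told apart from the treatment here.

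**Figure D5:**
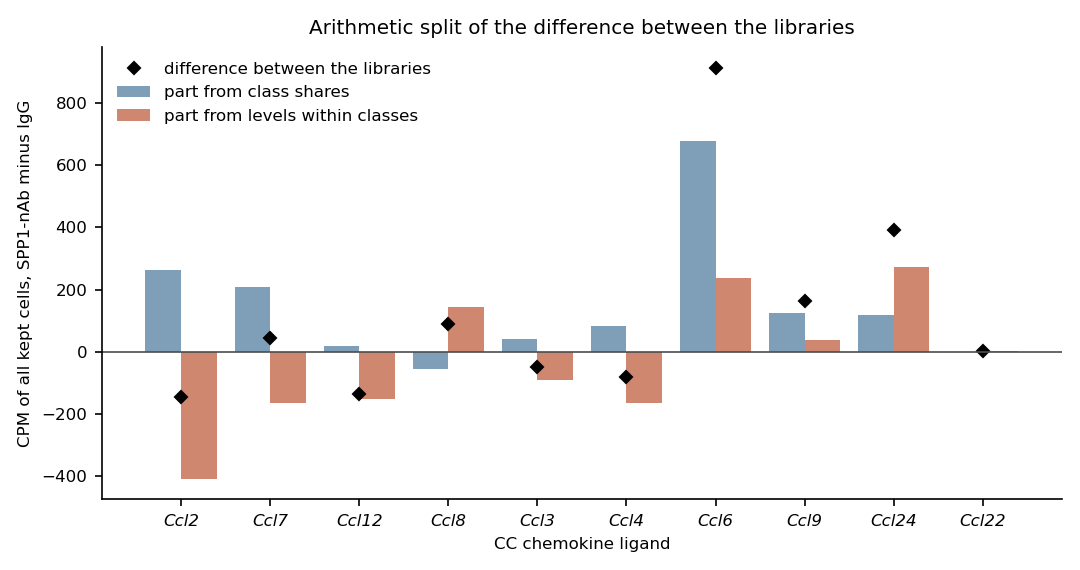
Difference of each CC ligand over all kept cells in CPM, SPP1-nAb minus IgG (black diamonds), with its part from class shares of UMIs (blue bars) and its part from levels within classes (orange bars). The bars point in opposite directions for *Ccl2*, *Ccl7*, *Ccl12*, *Ccl3*, *Ccl4* and *Ccl8*, and both point up for *Ccl6*, *Ccl9* and *Ccl24*.

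Of the 14 CC receptors and decoy receptors listed, 7 had at least 100 UMIs in phagocytes, where *Ccr7* alone was at least 2-fold higher with SPP1-nAb (0.542 and 1.70 CPM, 25 and 127 UMIs) and 0 were 2-fold lower. Of all genes with that many UMIs in phagocytes, 0.696% were at least 2-fold higher and 2.09% at least 2-fold lower. *Ccr2*, the receptor of CCL2, CCL7 and CCL12, was highest in monocyte-like phagocytes, with 1228 and 1126 CPM. Over all phagocytes *Ccr2* was 713 and 567 CPM (−0.33). *Ccr1*, the receptor of CCL3, CCL6 and CCL9, was highest in neutrophil-like cells (1440 and 1356 CPM), which also carried *Ccrl2* (3065 and 2306 CPM), a receptor that binds without signaling. *Ccr3*, the receptor of CCL24, was at 1.18 and 1.65 CPM over all kept cells. *Ccr4*, the receptor of CCL22, had 12 UMIs in all. *Ccr8*, the receptor of mouse CCL8, had 0 UMIs, which allows up to 3 UMIs in each library. *Ccr7*, the receptor that takes dendritic cells to lymph nodes, was highest in the same mregDC-like cells that held *Ccl22* (2172 and 2750 CPM).

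Of the 11 other CC ligands listed, 6 had at least 100 UMIs in phagocytes and 8 over all kept cells, and 0 were at least 2-fold higher with SPP1-nAb. Of all genes with that many UMIs, 0.696% were at least 2-fold higher and 2.09% at least 2-fold lower in phagocytes. Over all kept cells these shares were 0.648% and 5.82%. *Ccl26* was lower in phagocytes (1.32 and 0.63 CPM). Over all kept cells *Ccl11*, eotaxin-1 and like CCL24 a CCR3 ligand, was lower (124 and 43.6 CPM), as were the CCR7 ligands *Ccl19* (17.3 and 4.84 CPM) and *Ccl21a* (2.44 and 0.561 CPM), 2 genes with near-identical copies in the mouse genome whose counts are therefore uncertain. *Ccl11* was a mesenchymal product, with 745 and 516 CPM in mesenchymal-like cells, which were 2437 of the kept IgG cells and 1004 of the kept SPP1-nAb cells. *Ccl17*, like *Ccl22* a CCR4 ligand, was highest in mregDC-like cells (1316 and 1584 CPM).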

How the data were processed

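Muscle cells were captured on the 10x Genomics platform, 1 library per group. The authors deposited raw UMI counts per gene and barcode from Cell Ranger, version 8.0.0 in the submitters' processing notes and 9.0.1 in the file headers, with GRCm39 named as the build. The deposited counts precede the authors' removal of ambient RNA, filtering and integration, and they were used as deposited. Of 32287 identifiers, 31674 were in GENCODE M39.

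Barcodes with more than 200 genes and under 10% mitochondrial UMIs were kept, and the 10% per library with the highest share of simulated doublets (2 per barcode) among 50 neighbours were removed. A cell took the compartment with the largest share of its 8 markers detected (at least 3, with a lead of at least 0.25). Cells with a smaller lead were called mixed and left out of classes (541 IgG and 416 SPP1-nAb cells), as were those with too few markers (2544 and 1881). Leukocytes took a lineage and phagocytes a state from further marker lists, by the largest share detected with at least 3 markers. No minimum lead was required there, so a state could be given on a narrow margin. Phagocytes with a tie or fewer markers were left without a state. The libraries shared 163 barcodes (0.685% of IgG barcodes, 0.65% of SPP1-nAb barcodes). No class had more markers of another class than of its own among its top 10 genes by fold. Only classes gated in the same step were compared. The same markers had placed the cells, so this outcome was largely fixed in advance and is no check of the class names. Of the Dcstamp Ear2 cells, 88.0% in IgG and 71.3% in SPP1-nAb passed with exactly 3 markers.

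UMIs were summed per class and library and given as CPM with exact Poisson intervals, ratios with exact binomial intervals and shares with Clopper-Pearson intervals, all for counting error only. Shares of cells with a UMI used cells thinned to 2000 UMIs. The genes named were the 10 members, the listed CC receptors and other CC ligands with at least 100 UMIs (not all are reported here), and the most similar genes by Pearson's r over classes. The members and lists were chosen with earlier results of these data known. The scripts were tested on simulated data. Alternatives covered the gene, mitochondrial and doublet filters, the gate, Leiden clusters after Harmony integration, free RNA, scaling, the minimum UMIs, the fold counted and the cells with the most member UMIs. Python 3.11.15, numpy 2.4.6, scipy 1.17.1, scikit-learn 1.9.0 and leidenalg 0.10.2 were used.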

Additional observations from a re-analysis of the deposited data

Results flagged for a closer look

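*Ccl12* went in opposite directions in 2 phagocyte states. Its log2 ratio of SPP1-nAb over IgG was 0.73 in Dcstamp Ear2 phagocytes, on 57 IgG and 349 SPP1-nAb UMIs, and −0.87 in Arg1 Cxcl3 inflammatory-like phagocytes. *Ccl24* also had both directions, with 1.68 in phagocytes without a state, the remainder of the gate, and −1.02 in Gpr34 Fcrls phagocytes. With the marker gate these were in each case the groups with the highest and the lowest ratio of that gene. With clusters the Gpr34 Fcrls ratio of *Ccl24* was 0.11. Its resident-like ratio, −0.92, kept its sign over 11 alternative settings. With 1 library per group the difference between the states was not tested.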

How the results depend on the processing

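No paired analysis was possible because each group had 1 library, and for the same reason no replicate could be left out. Over all alternatives run, *Ccl24* stayed the one member at least 2-fold higher in phagocytes and over all kept cells. At 1.5-fold in either direction the count was 2 in both (*Ccl24* higher and *Ccl12* lower in phagocytes, *Ccl24* and *Ccl6* higher over all kept cells). The share of all genes past 1.5-fold was not counted, so the counts at 1.5-fold cannot be set against it. The summed ratio in phagocytes, −0.07, was −0.084 under 5% mitochondrial UMIs and with cells gated at equal depth, −0.056 without doublet removal, −0.049 with 20% of barcodes removed as doublets, −0.055 with Leiden clusters, −0.093 with at least 4 markers, −0.030 with median-of-ratios scaling and −0.065 without the top 1% of cells by member UMIs. Over all kept cells the 0.20 was 0.19 under 5% mitochondrial UMIs and without doublet removal, 0.24 with 20% removed, 0.17 with the equal-depth gate, 0.30 with median-of-ratios scaling and 0.22 without the top 1%. The phagocytes' share of member UMIs, 92.2% and 93.9%, was 92.3% and 94.0% with more than 500 genes, 92.3% and 93.9% under 5% mitochondrial UMIs and with a smaller compartment lead, 90.2% and 92.8% without doublet removal, 91.3% and 93.1% with 20% removed, 84.9% and 88.8% with at least 4 markers, 72.5% and 71.2% with the equal-depth gate (which left out 4224 and 3678 shallower cells), 95.6% and 95.9% with Leiden clusters, 92.6% and 94.2% after subtraction of free RNA, and 93.2% and 94.4% without the top 1%. The ratio of *Ccl24* in phagocytes ranged from 1.29 to 1.37, and each other member but *Ccl22* kept its direction there in 11 of 11 alternatives. Ratios in single classes outside the phagocytes were not put through the alternatives. The alternatives for single states and for the split were chosen after seeing the data. Among them *Ccl4* in Dcstamp Ear2 phagocytes was 0.0069 with at least 4 markers, *Ccl24* in Gpr34 Fcrls phagocytes was 0.11 with Leiden clusters, and the *Ccl22* part from class shares, −0.909 CPM, was 0.344 CPM with the equal-depth gate and 1.09 CPM with Leiden clusters. The cause was not tested.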
